A study of Danio rerio with 6 samples.

Results

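Membrane transporters and ion channels are the proteins that carry ions, nutrients, metabolites and waste across the plasma membrane and the membranes of organelles. Of the 670 gene models in the deposited table, 47 were taken as members, 34 of them by a symbol that begins with slc, abc, kcn, atp1, atp2 or aqp and 13 by the words transporter, channel, exchanger or solute carrier in the family annotation alone. The rule also leaves out models annotated as kinases, which removed 0, and models listed as uncharacterized, which removed 1. Left out by name were abcb6a, abca1a and the potassium channel models kcnj1a. The products of some members do not themselves move a solute. An example is trpc4apb, annotated as a TRPC4-associated protein and as a polymorphic pseudogene. Another is abcf2a, an ABC protein of a subfamily without membrane-spanning domains. The auxiliary calcium channel subunits cacna2d4a and cacna2d4b are further examples. No member has a symbol beginning with atp1, atp2 or aqp other than atp13a, which the reference names ATP13A1.

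Messenger RNA of whole zebrafish larvae was sequenced in 3 libraries from larvae exposed to 3 mM hydrogen peroxide (H2O2) in the water for 2 h and in 3 libraries from untreated larvae. Both groups are of the Nacre strain, a line without pigment cells of the melanophore type, raised at 28 degrees, and the sample labels give an age of 3 days post fertilization. The methods give a later age and a longer exposure, and neither could be settled from the files. Each library is a pool of whole larvae, so a transcript of the eye or of red blood cells is read together with all other tissues, and fewer cells of a type cannot be told apart from less RNA per cell. The methods also name the anaesthetic Tricaine, a blocker of sodium channels, for the treated larvae and do not say whether untreated larvae received it, so the groups may differ in it.

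Carriers of the solute carrier (SLC) families move their substrates by facilitated diffusion or by coupling to an ion gradient, whereas ABC proteins and P-type pumps use ATP. Channels open a path through which ions run down their gradient, and in cone photoreceptors a cyclic nucleotide gated channel carries the current that light shuts off. In fish larvae the skin and gills hold ionocytes, cells that take up salt and secrete acid and ammonia. Hydrogen peroxide is an oxidant and a signal at wounds, and the comparison asks which genes respond to it in the whole larva.

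The deposited value is log2(CPM + 1), where CPM is the read count of a gene scaled to the total of its library, and a difference is the mean of the treated minus the mean of the untreated libraries on this scale, given with its standard error (SE). It understates the fold change where CPM is low. Implied depth was 24727594 to 30400463 reads in the treated and 31811527 to 39766947 reads in the untreated libraries, the shallowest being H2O2 replicate 3, and no member was below 36 reads in any library. Only genes past the authors' limits on p and level, set on these same 6 libraries, are in the table. Every member therefore had to differ, and the counts of members below describe them and support nothing. CPM is not scaled by gene length, so levels are compared between groups and not between genes.

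Among the 47 members, 36 were higher and 11 lower in treated larvae, which is 76.6% higher, against 60.7% of the other 623 models. No treated library was below any untreated one in 35 members (58.4% of all models in the table) and none was above in 11 (35.5%), and only kcnk5b had groups that overlapped. With limma and adjustment over 24050 tests, 0 members passed an adjusted p of 0.05 (0% of the table). At an unadjusted p under 0.05, limma gave 31 members higher (55.5% of the table) and 11 lower (37.8%). The lowest adjusted p was 0.282, for slc27a6, whose own value ranged between 0.0991 and 1 over the alternative settings that kept the 24050 tests. Over all members and those settings the lowest was 0.0667, for slco2a1 with a replicate block. The median difference was 0.43 in the members and 0.40 in the whole table. Higher members lay within 0.34 to 0.76 and lower members within −0.73 to −0.40, and the table within −2.98 to 2.38. A range widens with the number of models, so these are not compared. The median difference without regard to sign was 0.46 in the members and 0.48 in the table. With all libraries and a pseudocount of 1, slco2a1 had the highest member difference and stood 62nd from the top of the table, and CNGB3 (2 of 2) had the lowest and stood 33rd from the bottom. This order depends on the scale and the libraries, as slc25a38a was highest at 0.86 with a pseudocount of 0.1, SLC22A31 was highest at 0.64 and cnga3a lowest at −0.41 with one of 5, and slc27a6 was highest at 0.80 without H2O2 replicate 3. Without H2O2 replicate 1, kcnc1a was lowest at −0.85. Of the 26 members with an SLC symbol, 24 were higher and 2, slc4a1b and slc9a2, were lower, whereas of the 21 others 12 were higher and 9 lower.

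**Figure D1:**
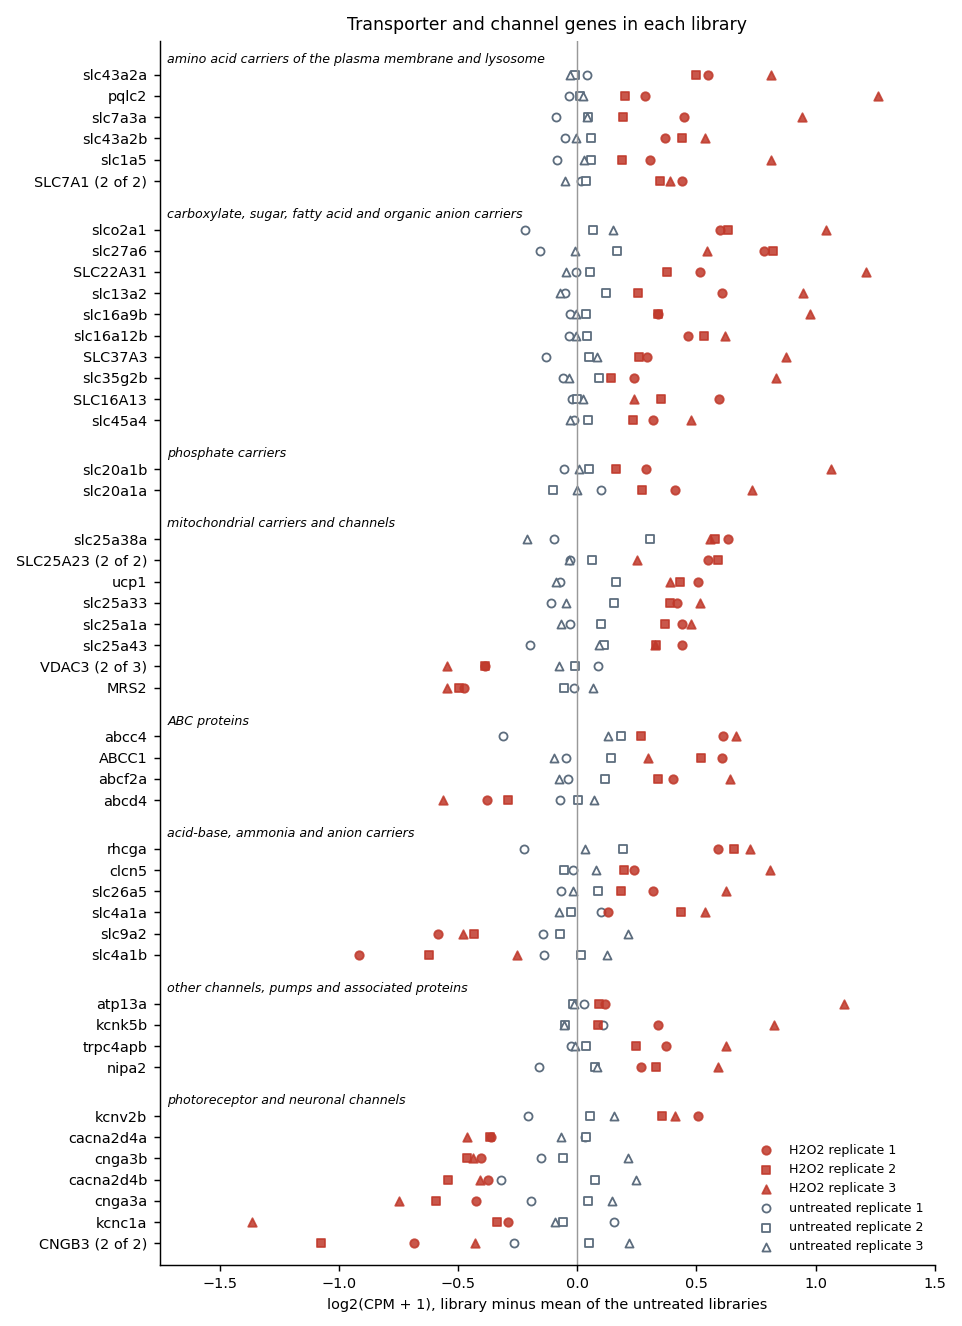
Each row is a member, grouped by role, and the horizontal axis is log2(CPM + 1) of a library minus the mean of the 3 untreated libraries. Filled red symbols are H2O2-treated and open symbols untreated libraries, with the symbol shape giving the replicate number. Nutrient carriers lie to the right of 0, and 6 of the 7 photoreceptor and neuronal channels lie to the left.

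All 6 amino acid carriers of the plasma membrane and lysosome were higher in treated larvae, with differences of 0.39 to 0.62 and no overlap between groups. Lack of overlap is not particular to them, as 391 of the 414 higher models in the table had none. slc43a2a (chr15:27717707-27757596, Zv9) encodes a sodium-independent carrier of large neutral amino acids. It measured 172, 166 and 206 CPM in treated larvae, against 121, 116 and 114 CPM in untreated larvae. The treated mean was 1.55 times the untreated mean, with a difference of 0.62 (SE 0.13, limma adjusted p = 0.316, 0.0999 to 1 over the alternatives). Its duplicate slc43a2b (chr10:24803925-24822912) had 229, 240 and 257 CPM in treated and 171, 184 and 176 CPM in untreated larvae. Both copies were thus higher in every treated library, by more than the spread of the untreated libraries. pqlc2 (chr8:11756982-11769306), whose product exports cationic amino acids from the lysosome, had 19.6, 18.4 and 39.4 CPM in treated larvae, against 15.5, 16.0 and 16.1 CPM in untreated larvae. Most of its difference of 0.58 (SE 0.26) came from H2O2 replicate 3, and without that library it was 0.24. The cationic amino acid carriers slc7a3a and SLC7A1 (2 of 2) differed by 0.53 and 0.39, and slc1a5, a sodium-dependent exchanger of neutral amino acids including glutamine, by 0.44. SLC7A1 (2 of 2) was even between replicates, at 11.4 to 12.2 CPM in treated and 8.39 to 8.98 CPM in untreated larvae, while without H2O2 replicate 3 slc7a3a came to 0.32 and slc1a5 to 0.25. 

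Of 37 symbols listed for the amino acid response, the transcriptional programme of amino acid shortage and integrated stress, 4 were in the table and none is a transporter. These 4 had passed the authors' limit on p in the same libraries, so they had to differ in some direction. The other symbols of the list were not analysed here, so the 4 do not describe the programme at large. The transcription factor cebpb differed by 1.02, the kinase-like regulator trib3 by 0.42 and the leucine sensor sesn2 by 0.48, while stc2a, a secreted glycoprotein, was lower at −0.54. Summed CPM of these 4 genes was 105 to 233 in treated larvae, against 86.7 to 95.4 in untreated larvae, the highest again being H2O2 replicate 3. The largest part of this sum was cebpb, at 60.4 to 168 CPM in treated and 43.3 to 50.4 CPM in untreated larvae. The part of these 4 genes in the differences of the amino acid carriers was not tested.

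The 10 carriers of carboxylates, sugars, fatty acids and organic anions were also all higher, at 0.34 to 0.76. slco2a1 (chr6:27332251-27373486) encodes the prostaglandin transporter. It had 11.6, 11.9 and 16.1 CPM in treated larvae, against 6.16, 7.72 and 8.24 CPM in untreated larvae. The treated mean was 1.79 times the untreated mean (difference 0.76, SE 0.16, limma adjusted p = 0.358, 0.0667 to 1 over the alternatives). slc27a6 (chr10:16452475-16491111), a fatty acid transport protein, had 10.13, 10.4 and 8.45 CPM in treated and 4.81, 6.26 and 5.43 CPM in untreated larvae. In this gene H2O2 replicate 3 was the lowest of the treated libraries, and the difference of 0.72 (SE 0.14) became 0.80 without it. SLC22A31 (chr7:57690264-57732027), of the SLC22 family of organic ion carriers, had 40.7, 36.9 and 66.6 CPM in treated and 28.0, 29.3 and 27.2 CPM in untreated larvae. Its difference was 0.70 with all libraries and 0.45 without H2O2 replicate 3.

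slc13a2 (chr21:37935152-37953365), the sodium-coupled carrier of citrate and other dicarboxylates, had 91.5, 71.5 and 116 CPM in treated larvae, against 57.6, 65.1 and 56.8 CPM in untreated larvae. The treated libraries of this gene were spread over a wide range, yet the lowest of them stood above the highest untreated one. The SLC16 family of monocarboxylate carriers had 3 members, all higher. slc16a12b (chr12:18034667-18053920), whose human counterpart carries creatine, had 43.6, 45.8 and 48.7 CPM in treated larvae, against 30.6, 32.2 and 31.2 CPM in untreated larvae. The groups were tight and well apart, with a difference of 0.54 (SE 0.11, limma adjusted p = 0.316, 0.108 to 1 over the alternatives). slc16a9b (chr12:8248793-8266826) had 45.0, 45.0 and 70.6 CPM in treated and 34.6, 36.4 and 35.2 CPM in untreated larvae, a difference of 0.55 that became 0.34 without H2O2 replicate 3. SLC16A13 differed by 0.39. The remaining carriers were SLC37A3, a sugar phosphate exchanger homologue on an unplaced scaffold, slc35g2b, of the nucleotide sugar carrier superfamily, and slc45a4, of a family of proton-coupled sugar carriers. They differed by 0.48, 0.40 and 0.34, and without H2O2 replicate 3 SLC37A3 came to 0.28 and slc35g2b to 0.19.

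Both copies of slc20a1, the sodium-phosphate cotransporter of most cells, were higher in treated larvae. slc20a1b (chr10:17745086-17758385) had 243, 223 and 417 CPM in treated larvae, against 191, 206 and 200 CPM in untreated larvae. slc20a1a (chr8:31905157-31923057) had 24.8, 22.5 and 31.3 CPM in treated and 19.8, 17.1 and 18.4 CPM in untreated larvae. The groups of neither copy overlapped, but slc20a1b in H2O2 replicate 3 stood far above every other library. With all libraries the difference was 0.50 (SE 0.22) for slc20a1b and 0.47 (SE 0.15) for slc20a1a, and without that library 0.23 for slc20a1b and 0.34 for slc20a1a.

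Carriers of the inner mitochondrial membrane formed a further group, with all 5 SLC25 members and the uncoupling protein ucp1 higher in treated larvae, at 0.36 to 0.59. slc25a38a (chr3:5241006-5260577), whose product brings glycine into mitochondria for heme synthesis, had 2.74, 2.60 and 2.55 CPM in treated larvae, against 1.26, 1.99 and 1.09 CPM in untreated larvae. The treated mean was 1.82 times the untreated mean. At this low level the difference depends on the pseudocount, being 0.59 (SE 0.15) on the log2(CPM + 1) scale, 0.86 with a pseudocount of 0.1 and 0.25 with one of 5. SLC25A23 (2 of 2), a calcium-regulated carrier of ATP and phosphate, differed by 0.46, and ucp1, which lets protons back into the matrix, by 0.44. slc25a33, the pyrimidine nucleotide carrier, differed by 0.44, slc25a1a, the citrate carrier, by 0.43 and slc25a43, whose substrate is not established, by 0.36. The 2 mitochondrial channels were lower in treated larvae. MRS2 (chr16:11881530-11901800), the magnesium channel of the inner membrane, had 4.22, 4.14 and 3.96 CPM in treated larvae, against 6.19, 5.98 and 6.61 CPM in untreated larvae. VDAC3 (2 of 3) (chr10:3307331-3325707), a metabolite pore of the outer membrane, had 14.1, 14.1 and 12.5 CPM in treated and 19.9, 18.6 and 17.7 CPM in untreated larvae. Replicates of both channels were close together, with differences of −0.51 (SE 0.11, limma adjusted p = 0.372, 0.126 to 1 over the alternatives) for MRS2 and −0.44 (SE 0.12) for VDAC3 (2 of 3).

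The ABC efflux pumps abcc4, which exports cyclic nucleotides and organic anions, and ABCC1, which exports glutathione conjugates, were higher in treated larvae by 0.52 (SE 0.17) and 0.48 (SE 0.13). ABCC1 had 38.5 to 48.0 CPM in treated larvae, against 29.0 to 34.5 CPM in untreated larvae. abcf2a differed by 0.46. abcd4, which takes part in cobalamin export from the lysosome, was lower, at 5.86 to 7.30 CPM in treated and 8.64 to 9.65 CPM in untreated larvae, a difference of −0.41 (SE 0.12).

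Acid-base, ammonia and anion carriers were split, with 4 higher and 2 lower. rhcga (chr7:15168692-15180088), an ammonia channel of the Rhesus family on the ionocyte list below, had 19.2, 20.2 and 21.2 CPM in treated larvae, against 10.5, 14.4 and 12.7 CPM in untreated larvae. The treated libraries lay close together, and the difference was 0.66 (SE 0.14, limma adjusted p = 0.318, 0.194 to 1 over the alternatives). slc9a2 (chr9:7004555-7033166), a sodium-proton exchanger, was lower, with 1.58, 1.87 and 1.78 CPM in treated larvae, against 2.51, 2.69 and 3.50 CPM in untreated larvae. Its difference was −0.50 (SE 0.13). The endosomal chloride-proton exchanger clcn5 differed by 0.42, or 0.22 without H2O2 replicate 3. slc26a5, known as prestin in the hair cells of mammals, differed by 0.37.

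The 2 copies of slc4a1, a chloride-bicarbonate exchanger, differed in opposite directions. slc4a1a (chr3:19955146-19981409), the band 3 protein of red blood cells, had 64.2, 79.5 and 85.4 CPM in treated larvae, against 62.8, 57.5 and 55.5 CPM in untreated larvae. slc4a1b (chr12:11132938-11179590), the copy that ionocytes use, had 4.75, 6.05 and 8.13 CPM in treated and 8.86, 9.98 and 10.8 CPM in untreated larvae. Treated libraries were thus above all untreated ones for the first copy, though H2O2 replicate 1 only just, and below all untreated ones for the second. The differences were 0.37 (SE 0.14) and −0.60 (SE 0.18). 

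Markers of the cell types concerned were read from the same table, so those found there had also been selected by p on these libraries. Of 31 ionocyte symbols, 7 were in the table: rhcga was higher, and slc4a1b and 5 models of the potassium channel kcnj1a were lower. Summed CPM of all 7 was 32.6 to 41.8 in treated larvae, against 37.4 to 44.7 in untreated larvae, so the groups overlapped. Without the 2 members, the sum over the 5 kcnj1a models was 6.32 to 12.5 in treated larvae, against 18.0 to 20.4 in untreated larvae. Of 29 erythrocyte symbols, 3 were in the table, namely slc4a1a, slc25a38a and the globin hbae1. The globin hbae1 had 440, 501 and 1116 CPM in treated larvae, against 485, 373 and 403 CPM in untreated larvae, so its groups overlapped and its highest value was in H2O2 replicate 3. Summed CPM of all 3 was 507 to 1204 in treated larvae, against 432 to 549 in untreated larvae. Other symbols of these lists were not analysed here, and the part of cell number in any of these differences was not tested.

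Of the 7 channels of photoreceptors and neurons, 6 were lower in treated larvae, which is 6 of the 11 lower members. CNGB3 (2 of 2) (chr24:31096605-31115684), the modulatory subunit of the cone cyclic nucleotide gated channel, had 2.38, 1.58 and 3.03 CPM in treated larvae, against 3.52, 4.63 and 5.31 CPM in untreated larvae. Its treated mean was 0.519 times the untreated mean, with a difference of −0.73 (SE 0.19), or −0.37 with a pseudocount of 5. cnga3a (chr6:38725815-38749446), the pore subunit of the same channel, had 7.69, 6.74 and 5.94 CPM in treated and 9.21, 11.0 and 11.9 CPM in untreated larvae. The difference of cnga3a was −0.59 (SE 0.14, limma adjusted p = 0.512, 0.417 to 1 over the alternatives). Its duplicate cnga3b (chr1:9943233-9952650) had 2.51, 2.37 and 2.43 CPM in treated larvae, against 3.17, 3.45 and 4.37 CPM in untreated larvae. These 3 models of the cone channel's subunits were lower in each treated library than in any untreated one. The same held for 238 of the 256 lower models in the table, and other models of the channel were not analysed here.

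cacna2d4 encodes an auxiliary subunit of the calcium channel at the photoreceptor synapse. cacna2d4a (chr4:19174092-19230701) had 3.23, 3.22 and 2.95 CPM in treated larvae, against 4.56, 4.58 and 4.19 CPM in untreated larvae. cacna2d4b (chr25:19513809-19580551) had 12.7, 11.2 and 12.4 CPM in treated and 13.2, 17.7 and 20.1 CPM in untreated larvae. The untreated libraries of cacna2d4b were spread widely, and the lowest of them was just above the treated ones. kcnv2b (chr5:9471688-9483668), which encodes a silent potassium channel subunit of photoreceptors, was the exception, with 2.71, 2.34 and 2.47 CPM in treated larvae, against 1.26, 1.71 and 1.90 CPM in untreated larvae. It was higher by 0.42 (SE 0.13). kcnc1a (chr7:34362962-34418098), a potassium channel of fast-firing neurons, had 6.37, 6.15 and 2.51 CPM in treated and 9.05, 7.64 and 7.45 CPM in untreated larvae. Its difference was −0.66 with all libraries and −0.31 without H2O2 replicate 3, where it was lowest.

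Of 61 photoreceptor symbols, 6 were in the table, none of them a member, and all 6 were lower. Groups did not overlap in 4 of the 6, against 238 of the 256 lower models in the table. These 6 had passed the authors' limit on p in the same libraries, so they had to differ in some direction. The other symbols of the list were not analysed here, so the 6 do not describe photoreceptor genes at large. These 6 are rcvrna, grk7a, pde6h, impg1a, grk1b and guca1c, most of which act in the shutoff or recovery of the light response. Their summed CPM was 76.2 to 107 in treated larvae, against 104 to 174 in untreated larvae, and H2O2 replicate 3 was the highest of the treated libraries. In the untreated libraries the sum was 104 in replicate 1, 147 in replicate 2 and 174 in replicate 3. The channels cnga3a, cnga3b, CNGB3 (2 of 2) and cacna2d4b were likewise lowest in untreated replicate 1 and highest in untreated replicate 3. So was kcnv2b, which was higher in treated larvae, while cacna2d4a and kcnc1a did not follow this order. Hours of collection were not given, and the part of photoreceptor number or of time of day was not tested.

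**Figure D2:**
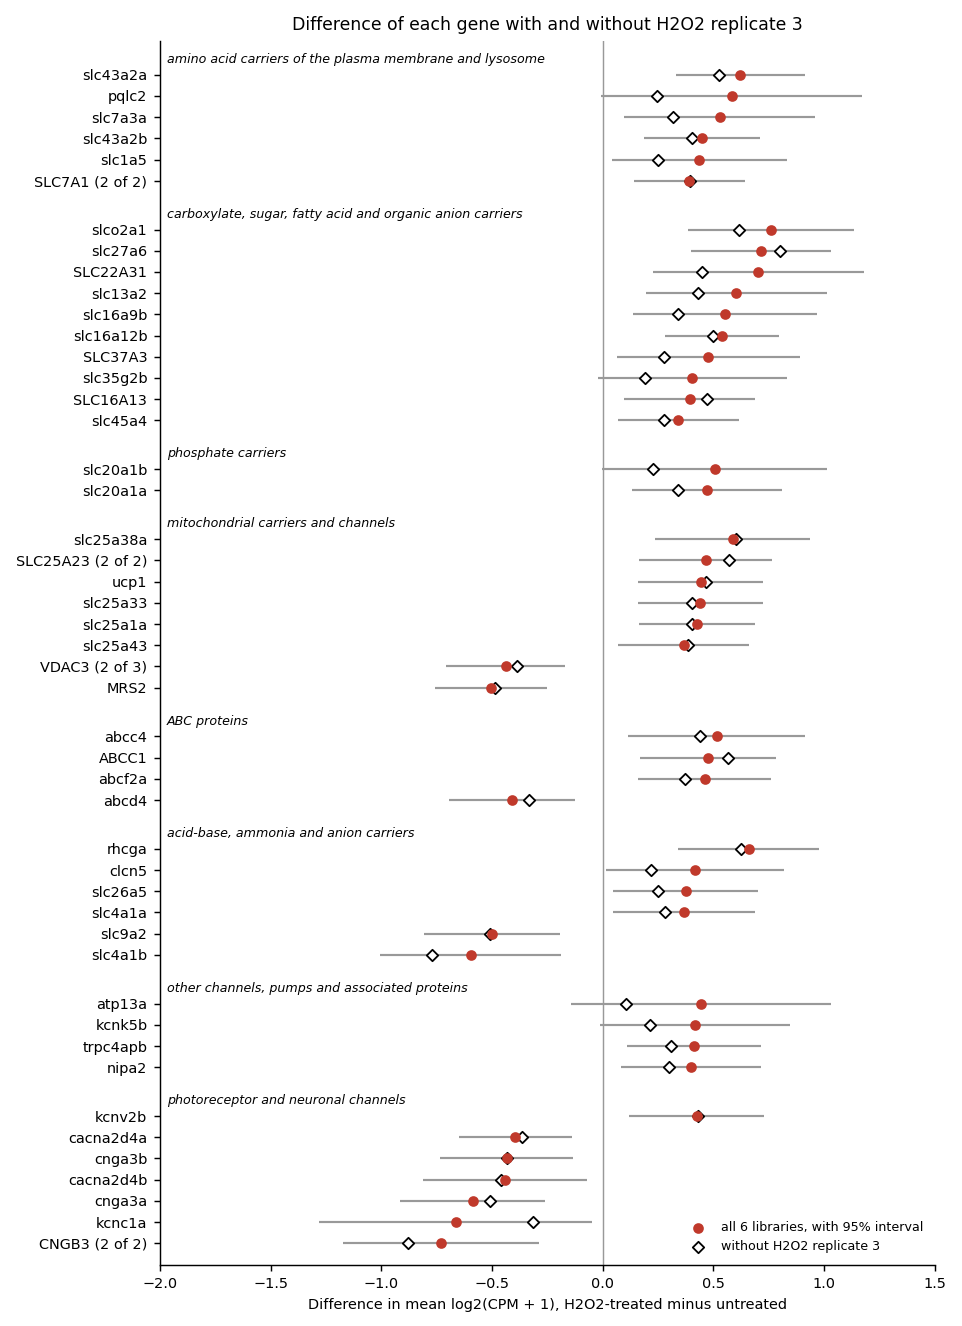
Filled circles are the difference in mean log2(CPM + 1), H2O2-treated minus untreated, with the 95% interval of the limma fit as a line, and open diamonds are the difference without H2O2 replicate 3. Most amino acid, carboxylate and phosphate carriers lie nearer to 0 without that library, for example pqlc2 with 0.24 against 0.58, whereas the circles and diamonds of the mitochondrial group lie close together.

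The remaining members are atp13a, an ATPase of the endoplasmic reticulum membrane by its reference name, kcnk5b, a background potassium channel, nipa2, a magnesium transporter, and trpc4apb. All 4 were higher, at 0.40 to 0.44, and in all 4 H2O2 replicate 3 was the highest library. In atp13a, named here after its values were seen, that library stood alone. It had 62.0, 61.1 and 125 CPM in treated larvae, against 58.4, 56.5 and 56.7 CPM in untreated larvae, and its difference of 0.44 (SE 0.26) was 0.10 without H2O2 replicate 3. kcnk5b had 7.14 to 12.6 CPM in treated and 6.37 to 7.26 CPM in untreated larvae, and 0.42 became 0.21 without the same library. 

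H2O2 replicate 3 stood farther from the mean of the untreated libraries than the other treated ones in 33 of 47 members (70.2%), close to its share of 69.1% over the whole table. In 12 members (25.5%, against 23.4% of the table) the difference with all libraries was more than 1.5 times that without H2O2 replicate 3. Each of the 12 is named above with its value without that library. By role, this library exceeded the mean of H2O2 replicates 1 and 2 by a median of 0.61 in the phosphate carriers and 0.47 in the carboxylate group. The median was 0.46 in the other channels and pumps, 0.43 in the amino acid carriers and 0.31 in the acid-base group. It was −0.06 in the mitochondrial group, −0.02 in the photoreceptor and neuronal channels and −0.002 in the ABC proteins. These values are signed, so higher and lower members of a role can cancel. Over the whole table the same median was 0.34 in the higher and −0.17 in the lower models. The value of the phosphate carriers rests on 2 members. This library was still the farthest treated one in 4 of 8 mitochondrial members, 3 of 7 photoreceptor and neuronal channels and 3 of 4 ABC proteins. No member changed sign without it, which members without overlap between groups could not do, and the median difference of the members became 0.31. What sets this library apart was not tested.

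**Figure D3:**
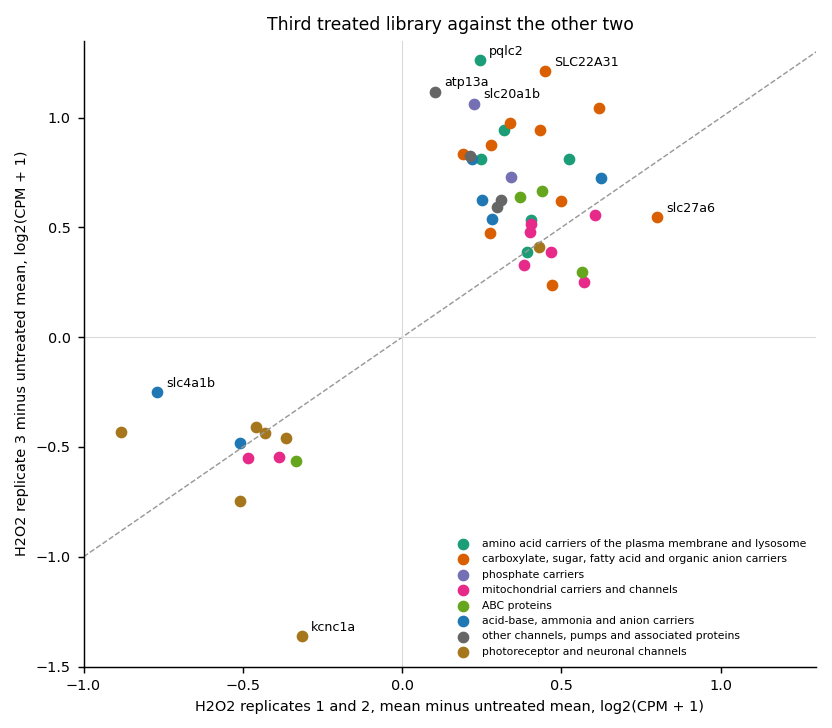
Each point is a member, with the mean of H2O2 replicates 1 and 2 on the horizontal axis and H2O2 replicate 3 on the vertical axis, both minus the untreated mean in log2(CPM + 1). The dashed line marks equal values. Points above it on the right, such as pqlc2, atp13a and slc20a1b, were farther from untreated in replicate 3, while slc27a6 lies below it.

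In 5 duplicated pairs both copies are members, so the response of the copies could be compared within the same libraries. Members without a second copy among the members, such as slc7a3a and kcnv2b, were not compared. The 5 pairs therefore do not describe duplicated genes at large. The difference between their responses was tested by an exact permutation of the group labels, two-sided, with p-values adjusted over the 5 pairs. With 3 libraries against 3 the smallest p this test can give is 0.1, so no pair could pass the threshold. slc4a1a minus slc4a1b was the widest, at 0.96 (SE 0.15, exact p = 0.1, adjusted p = 0.5). Both copies were selected by p on these libraries, and their groups do not overlap and lie on opposite sides. The exact p of this pair therefore had to be 0.1, and it tests nothing further. slc43a2a exceeded slc43a2b by 0.17 (SE 0.08, exact p = 0.2, adjusted p = 0.5). cnga3a minus cnga3b was −0.15 (SE 0.10, exact p = 0.3, adjusted p = 0.5). The copies of slc20a1 differed by −0.03 (SE 0.17, exact p = 0.8, adjusted p = 0.9) and those of cacna2d4 by 0.05 (SE 0.21, exact p = 0.9, adjusted p = 0.9). Both of these last values changed sign between settings, as that of slc20a1 was 0.12 without H2O2 replicate 3 and that of cacna2d4 −0.02 with a pseudocount of 0.1. Similar copies can share reads in the counting, and how alike the copies of these pairs are was not tested.

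**Figure D4:**
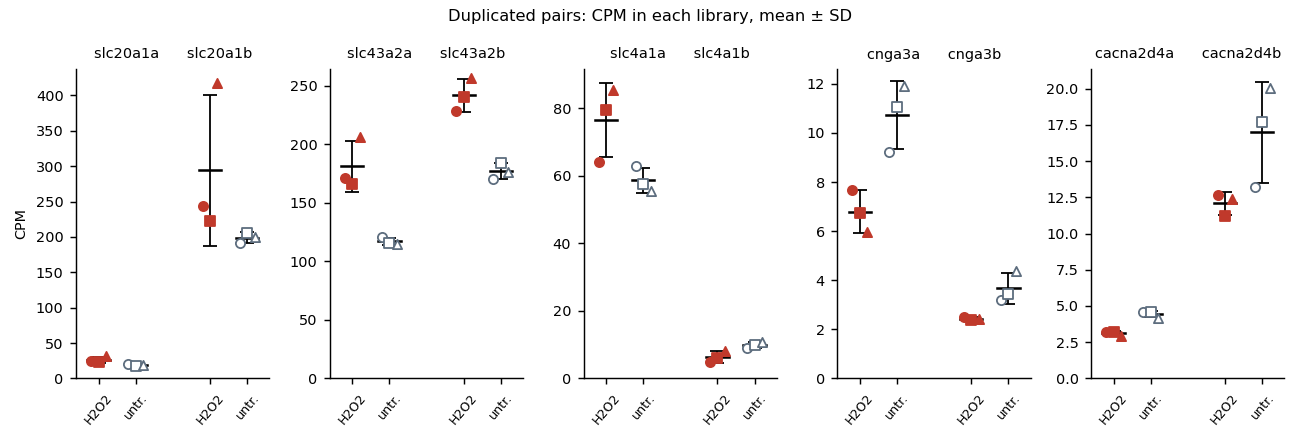
Points are CPM in each library for both copies of 5 duplicated genes, H2O2-treated in red and untreated (untr.) open, with symbol shapes for replicates 1 (circle), 2 (square) and 3 (triangle), and black lines are the mean ± SD. Both copies lie on the same side in 4 pairs, whereas slc4a1a is higher and slc4a1b lower in treated larvae. Only pairs with both copies selected by p on these libraries are shown.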

How the data were processed

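The authors extracted RNA from pools of about 500 larvae, enriched poly(A) RNA and deposited, for each gene and library, log2 of CPM with 1 added. Their methods name RSEM on Ensembl transcripts of Zv9 and an edgeR test run by the authors, and give 4 days post fertilization and 3 h of treatment, where the labels give 3 days and 2 h. Per the labels, TopHat, Bowtie2 2.0.9, Cuffdiff and Cufflinks were also used. Whether counting used strand is not given in the sources used here. Rows of the deposited table are those that the authors kept at log2 CPM over 1 and p below 0.05. Its columns of their fold changes, p-values and FDR were not used. Coordinates are those of the deposited table.

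CPM were recovered as 2 to the deposited value, minus 1. The step between values gave whole reads within 0.02 for 100% of values. Counting error covers this sampling only, and p-values measure the spread between pools. The log2 values of all 670 models were fitted with limma 3.58.1 in R 4.3.3, treatment as the only term, with empirical Bayes moderation. The moderation took its common variance from these selected models alone. SEs and intervals may therefore be too narrow and differences too large, which the number of tests below does not correct. Benjamini-Hochberg adjustment of the two-sided p-values took 24050 tests, from 35786 annotated genes less 11736 at 0 by the methods, because selection had used the same libraries. No count test was run, as reads could be recovered only for selected genes. The scripts were tested on simulated data in which genes were not selected by p, so this does not cover the effect of the selection. Exact permutation tests went through every relabelling of the libraries, and scipy 1.17.1 adjusted their p-values. Values per library were given for the 10 largest positive and 8 largest negative differences, both copies of duplicated pairs and the photoreceptor and neuronal channels. Members, roles, marker lists and tests were chosen with earlier results of these data known. As alternatives, the adjustment was made over the table's models alone, moderation used a trend, was robust or was left off, the pseudocount was 0.1 or 5, models under a mean log2 value of 3 were dropped, a replicate block was added, and each library, or trpc4apb with abcf2a, was left out.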

Additional observations from a re-analysis of the deposited data

How the results depend on the processing

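Adjusted over the table alone, 42 members passed with limma, 31 higher and 11 lower, but this adjustment covers only genes already selected by p on these libraries, and 617 of the 670 models pass it. Under each other alternative 0 members passed. Requiring a mean log2 value of at least 3 left 39 of the 47 members, of which 5 were lower at an unadjusted p under 0.05 and 5 had every treated library below every untreated one, since 8 members are below the filter. With a replicate block 0 members passed, and limma's unadjusted p was under 0.05 for 34 higher and 11 lower ones, while 71 models of the table passed. The replicate numbers are not known to pair libraries, and same-numbered libraries did not deviate together (correlations across genes of −0.0014, −0.11 and −0.0001). Leaving out 1 library at a time gave 0 members passing, 21 to 34 higher and 8 to 11 lower by unadjusted p, and a median difference of 0.31 to 0.47. With all libraries and no block, 55.5% of the table was higher and 37.8% lower by unadjusted p. Shares of the table by unadjusted p under the alternatives are not given here, so the counts of members by unadjusted p show nothing particular to them. Among the other models, 9 passed without H2O2 replicate 2 and 1 without H2O2 replicate 3. Of 650 recomputed member differences, 0 changed sign. The adjustment, moderation, level and block settings leave the difference itself unchanged, so they could not reverse it. Under the other settings a member whose groups do not overlap cannot change sign, and only kcnk5b had groups that overlapped. With a pseudocount of 5, the differences of 8 members with low CPM were smaller by over 1.5 times, for example slc25a38a with 0.25 and kcnv2b with 0.18. Members had at least 36 reads in each library, and the part of counting error in the spread of those with few reads was not tested.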

Other observations

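Gene models of the same families that were not counted as members were also selected by the authors. The SLC6 family model si:ch211-225b11.1, listed as uncharacterized, had 26.8, 26.4 and 14.8 CPM in treated larvae, against 9.93, 12.4 and 10.11 CPM in untreated larvae, a difference of 0.96 (SE 0.22, limma adjusted p = 0.466). abca1a, the cholesterol efflux pump, had 155, 132 and 169 CPM in treated and 82.8, 91.2 and 80.6 CPM in untreated larvae, a difference of 0.83 (SE 0.13). abcb6a, a porphyrin transporter, had 12.5, 10.33 and 14.0 CPM in treated and 5.63, 6.34 and 6.00 CPM in untreated larvae, a difference of 0.91 (SE 0.14). On the log2(CPM + 1) scale with all libraries, these 3 differences are above the 0.76 of slco2a1. The 5 models of kcnj1a, a potassium channel of ionocytes, differed by −0.90 to −0.57, with each treated library below each untreated one. The same held for 238 of the 256 lower models in the table. Whether the kcnj1a models share reads was not tested.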
